A study of Homo sapiens with 2 samples.

Results

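The insulin-like growth factor (IGF) pathway was examined through 10 genes, the ligand IGF1, the receptors IGF1R and IGF2R, the adaptors IRS1 and IRS2, and the binding proteins IGFBP2, IGFBP3, IGFBP4, IGFBP5 and IGFBP6. They were chosen by gene symbol, and all 10 were found among the 53737 genes of the deposited tables. The tables came from 2 libraries of SK-ES-1, an established cell line of Ewing sarcoma, a bone tumour driven by the fusion transcription factor EWSR1-FLI1. The SCC library was made from slow-cycling cells and the non-SCC library from cells that do not cycle slowly. Both libraries are labelled wild type, both are of this 1 line, and how the cells were separated is not given in the sources used. The column headers write LRC for the SCC library and non-LRC for the non-SCC library, abbreviations that the labels do not explain. With 1 library per group no difference below has a replicate check, and no error or p-value can be given.

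IGF1 and its relative IGF2 signal through IGF1R, a receptor tyrosine kinase, which phosphorylates IRS1 and IRS2 and through them turns on the PI3K-AKT-mTOR and RAS-ERK cascades of growth and survival. IGF2R, also the cation-independent mannose 6-phosphate receptor, has no kinase and takes IGF2 to lysosomes, and the IGFBPs bind IGFs outside the cell and hold them from the receptor or deliver them to it. In Ewing sarcoma IGF1R has long been studied as a drug target, and IGFBP3 is known as a gene that EWSR1-FLI1 represses.

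IGFBP3 was 1.68-fold higher in the SCC library, the only member past 1.5-fold. IGFBP5 and IGF1R followed at 1.39-fold and 1.27-fold, and IGFBP2, the most abundant member, was the single one at a lower level. The other 6 members differed by less than 1.2-fold. These folds are of the levels themselves, while genes are counted as past 1.5-fold on log2(level + 1), which draws low genes closer to 0. In bulk libraries such as these, more cells that express a gene and more of its RNA per cell cannot be told apart. To show the sequence in front of these genes, the 250 bases before the transcription start are printed for the 3 members with the largest difference and for IGFBP4, the member with the smallest, from RefSeq's promoter table of GRCh38.p14. They lie at chr7:45921273-45921522 on the minus strand for IGFBP3, chr2:216695550-216695799 on the minus strand for IGFBP5, chr15:98648289-98648538 on the plus strand for IGF1R and chr17:40443200-40443449 on the plus strand for IGFBP4. Capitals mark elements of the TATA type, read as TATAAA, as the variant TATTTAA or as the variant TATATA, each on either strand. They also mark ACGTG, a form of the core site of hypoxia-inducible factors, on either strand. The other form of that core, GCGTG, was neither searched nor marked.
IGFBP3: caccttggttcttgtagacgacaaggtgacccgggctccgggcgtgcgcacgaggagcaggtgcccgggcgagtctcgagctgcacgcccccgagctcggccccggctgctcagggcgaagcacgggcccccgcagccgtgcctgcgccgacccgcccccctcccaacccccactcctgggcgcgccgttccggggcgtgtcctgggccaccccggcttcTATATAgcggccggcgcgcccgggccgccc
IGFBP5: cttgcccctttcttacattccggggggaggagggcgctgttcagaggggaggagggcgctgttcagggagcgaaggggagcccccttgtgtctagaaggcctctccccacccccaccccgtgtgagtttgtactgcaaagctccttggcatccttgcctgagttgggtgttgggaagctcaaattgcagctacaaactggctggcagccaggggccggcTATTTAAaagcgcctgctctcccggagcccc
IGF1R: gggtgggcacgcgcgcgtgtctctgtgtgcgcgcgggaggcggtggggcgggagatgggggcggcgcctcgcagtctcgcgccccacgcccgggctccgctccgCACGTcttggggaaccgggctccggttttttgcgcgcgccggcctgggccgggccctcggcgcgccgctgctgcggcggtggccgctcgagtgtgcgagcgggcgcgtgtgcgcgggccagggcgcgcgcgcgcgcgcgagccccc
IGFBP4: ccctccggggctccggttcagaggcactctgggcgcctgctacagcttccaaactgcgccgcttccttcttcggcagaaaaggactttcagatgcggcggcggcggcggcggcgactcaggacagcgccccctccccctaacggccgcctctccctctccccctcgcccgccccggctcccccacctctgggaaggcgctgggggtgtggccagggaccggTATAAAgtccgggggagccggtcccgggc

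The promoters of the 3 binding proteins each hold 1 TATA-type element. It starts 30 bases before the transcription start in IGFBP3 (TATATA), 31 bases before in IGFBP5 (TATTTAA) and 29 bases before in IGFBP4 (TATAAA). Of 35116 RefSeq promoters cut to the same 250 bases, 3.73% hold TATATA, 4.17% TATTTAA and 10.7% TATAAA on either strand. TATATA and TATTTAA were chosen as motifs after these sequences were seen. The TATA-type elements were thus present in IGFBP3 and IGFBP5, which differed most, and in IGFBP4, which differed least as measured. With the trend of ratio with level removed, IGFBP4 differed more than IGFBP6 and IGFBP2 (0.09, against 0.0023 and 0.0072). None of the 3 TATA forms was found in the promoters of the other members. The share of all promoters that hold any of the 3 forms is not given. The IGF1R promoter, 81.2% G and C, holds none of the 3 TATA forms and holds ACGTG once, on the opposite strand, 146 bases before the start. ACGTG is in 18.5% of promoters, and among the members only IGF2R holds this form of the core as well. Which promoters hold GCGTG was not counted.

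All 13 promoter entries of the members were searched on both strands for 5 further motifs. CACGTG, an E-box that contains ACGTG on each strand, is in 6.34% of all promoters and occurs 3 times in that of IGF2R. GTAAACA, a FOXO site, is in 2.98%, and was found before IGFBP6 and before 1 of the 2 starts of IGF1. TGTTTTG, an insulin response element, is in 4.30% and was found before IRS2. The GC box GGGCGG is in 42.6% of all promoters and in 9 of the 13 entries. GGAAGGAA, a pair of the repeats that EWSR1-FLI1 binds, is in 3.06% and in none of the 13. These are matches of letters within 250 bases and say nothing of whether a factor binds there.

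Levels are given in per-million units, here called units, obtained by subtracting 1 from 2 raised to the deposited value. Levels of different genes can be compared only if the authors scaled them by length, which is not stated. The mean level of tested protein-coding genes in the SCC library was 199 for those whose longest transcript is under 1000 bases and 31.8 for those over 8000, a decline expected of values scaled by length and not of plain counts. The order of levels below rests on that inference. In the non-SCC library the same means were 214 and 30.1, so the SCC mean was lower for these short genes and higher for these long ones. The longest transcripts of IGF1R, IGF2R, IRS1 and IRS2 are each over 8000 bases. The part of transcript length in their ratios was not tested.

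In the SCC library the members ran in the order IGFBP2, IRS2, IGFBP4, IGF2R, IRS1, IGFBP5, IGF1R, IGFBP6, IGFBP3 and IGF1. The non-SCC library had the same order except that IGFBP6 stood above IGF1R and IGF1 above IGFBP3. With 1 library each, no spread is known that would separate neighbours in this order. IGFBP2 and IRS2 lay above 96.4% and 92.5% of tested genes in the SCC library, while IGF1 lay above 27.2%.

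**Figure D1:**
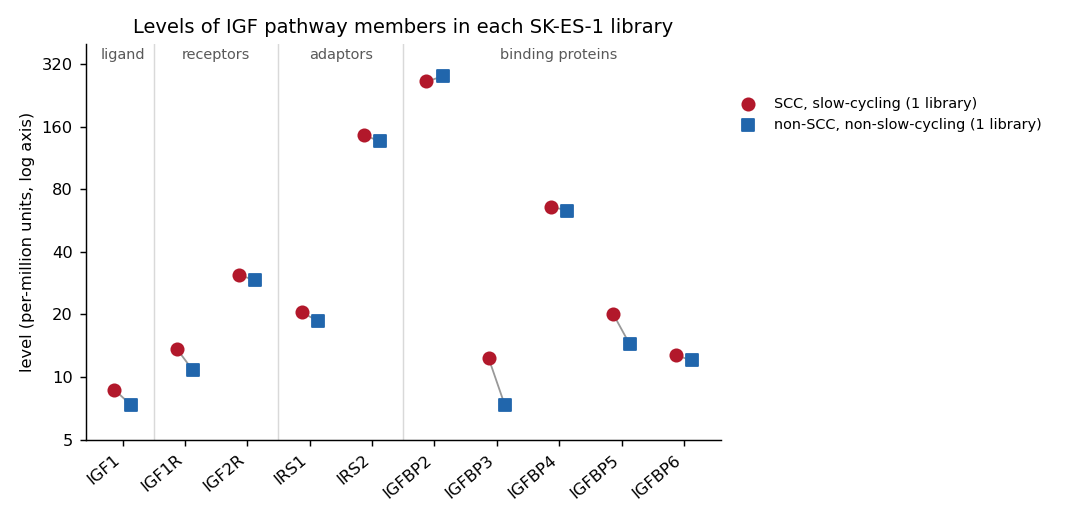
Level of each member on a log axis in per-million units, 1 point per library, with the SCC library as circles and the non-SCC library as squares, grouped by role. The steepest lines are those of IGFBP3 and IGFBP5, while IGFBP2 is the only member whose circle is the lower of the pair.

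The ligand IGF1 lies on chromosome 12 (102395874 to 102481839, GRCh38). It was at 8.68 units in the SCC library, against 7.37 in the non-SCC library, a 1.18-fold difference. IGF2, the other ligand of the pathway, was listed at 0 in both, as were insulin and the IGF2 antisense gene. IGF1 was therefore the only one of these ligand genes with a value above 0 in the tables, although a gene listed at 0 can be a failed estimate, since all 13 protein-coding genes of mitochondrial DNA were listed at 0 too.

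IGF1R lies on chromosome 15 (98648539 to 98964530). It was at 13.7 units in the SCC library, against 10.7 in the non-SCC library. The log2 ratio, taken throughout as log2(level + 1) in the SCC minus the non-SCC library, was 0.32. INSR, the insulin receptor, which pairs with IGF1R in hybrid receptors, was at 13.4 units in SCC and 10.8 in non-SCC, a log2 ratio of 0.29. The level of IGF1R divided by that of INSR was thus 1.02 in the SCC and 0.993 in the non-SCC library. INSRR, the insulin receptor-related receptor, was listed at 0 in both.

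IGF2R lies on chromosome 6 (159969082 to 160111504) and was at 30.9 units in the SCC library, against 29.2 in the non-SCC library. Its log2 ratio of 0.08 was close to the median of 0.02 over the 5082 tested genes within 2-fold of its mean level. The level of IGF2R was 2.26 times that of IGF1R in the SCC library and 2.71 times in the non-SCC library. AIRN, the antisense transcript within IGF2R, and IRAIN, which overlaps the start of IGF1R, were listed at 0 in both libraries. CHP1P2, a pseudogene within IGF2R, was at 5.05 units in SCC and 4.12 in non-SCC. The library kit keeps strand, but whether the counting used it is not given in the sources used here, so reads of overlapping genes may be shared.

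The adaptors differed little. IRS1, on chromosome 2 (226731312 to 226799820), was at 20.5 units in the SCC library, against 18.6 in the non-SCC library, a log2 ratio of 0.13. IRS2, on chromosome 13 (109752695 to 109786583), was at 146 units in SCC, against 136 in the non-SCC library, a log2 ratio of 0.10. IRS2 was the more abundant adaptor in both libraries, at 7.10 times the level of IRS1 in the SCC and 7.31 times in the non-SCC library. IRS4, another adaptor of this family, was listed at 0 in both. Although the log2 ratio of IRS2 was small, 83.7% of the 1981 tested genes within 2-fold of its mean level had a lower one, and their median was -0.06.

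Of the binding proteins, IGFBP3 is the main IGF carrier of serum and can also slow growth without IGFs. It lies on chromosome 7 (45912245 to 45921272) and was at 12.3 units in the SCC library, against 7.30 in the non-SCC library. Its log2 ratio was 0.68. Of the 3936 tested genes within 2-fold of its mean level, 2.24% had a higher ratio, and of all 13444 tested genes 4.01% did. Its neighbour IGFBP1, 18585 bases away, was listed at 0 in both.

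IGFBP5, a binding protein of bone and muscle, and IGFBP2 lie beside each other on chromosome 2, separated by 7669 bases. IGFBP5 (216672105 to 216695549) was at 20.0 units in the SCC library, against 14.4 in the non-SCC library, a log2 ratio of 0.45. Of the 4845 tested genes within 2-fold of its mean level, 3.67% had a higher ratio. IGFBP2 (216632828 to 216664436), a binding protein abundant in fetal tissue and in many tumours, was at 264 units in the SCC library, against 279 in the non-SCC library, a log2 ratio of -0.08. That equals, at this rounding, the median of the 921 tested genes within 2-fold of its mean level, also -0.08. These neighbouring genes thus differed in opposite directions, though IGFBP2 by no more than genes of its level, and it turned to 0.0072 once the running median at each level was subtracted. IGFBP-AS1, a long non-coding gene that overlaps IGFBP5, was listed at 0 in both.

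IGFBP4, on chromosome 17 (40443450 to 40457725), was at 66.1 units in the SCC library, against 63.2 in the non-SCC library, a log2 ratio of 0.06. IGFBP6, which binds IGF2 in preference to IGF1, lies on chromosome 12 (53097667 to 53102340) and was at 12.7 in SCC, against 12.0 in the non-SCC library, a log2 ratio of 0.08. Both differed by less than 1.1-fold. IGFBP7, a related protein that binds IGFs weakly, was listed at 0 in both libraries.

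The summed level of IGFBP2 to IGFBP6 was 375 units in the SCC library and 376 in the non-SCC library. The sum was nearly equal while its make-up differed. IGFBP2 made up 70.4% of it in the SCC and 74.2% in the non-SCC library. IGFBP3 made up 3.28% in SCC and 1.94% in non-SCC, and IGFBP5 5.33% in SCC and 3.83% in non-SCC. The shares of IGFBP4, 17.6% in SCC and 16.8% in non-SCC, and of IGFBP6, 3.39% in SCC and 3.19% in non-SCC, lay closer together. The level of IGFBP2 divided by that of IGFBP3, whose fold between the libraries does not depend on gene length, was 21.5 in the SCC library, against 38.2 in the non-SCC library.

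**Figure D2:**
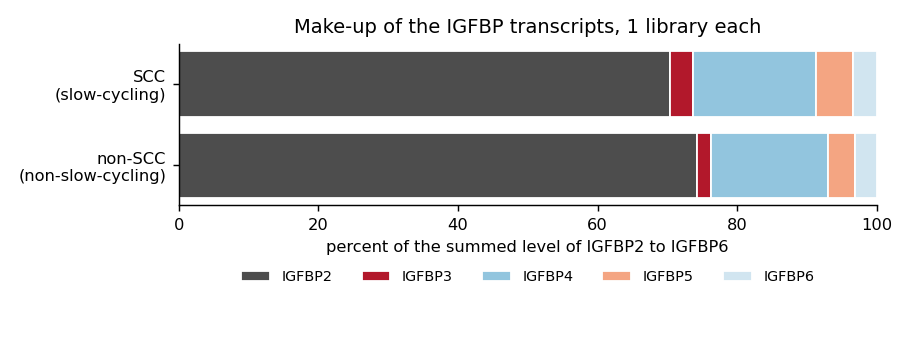
Share of each binding protein in the summed level of IGFBP2 to IGFBP6, in percent, with 1 bar per library. IGFBP2 fills 70.4% of the SCC and 74.2% of the non-SCC bar, and the segments of IGFBP3 and IGFBP5 are wider in the SCC library.

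Over all members, 1 of 10 was at least 1.5-fold higher in the SCC library and none at least 1.5-fold lower. Among all tested genes, those with 1 unit or more in either library, 5.38% reached 1.5-fold in the higher direction and 1.41% in the lower. Between the lowest and the highest mean level of the members, the shares were 1.26% and 0.361% of 9411 tested genes. A log2 ratio above 0 was found for 9 of the 10 members, against 56.2% of all tested genes and 52.9% of those in that range of levels. With the trend of ratio with level removed all 10 were above 0, IGFBP6 and IGFBP2 only at 0.0023 and 0.0072. The 2 shares were taken with the trend left in and do not apply to that count. The median log2 ratio of the members was 0.12, against 0.03 for all tested genes. None of these comparisons is matched for transcript length, with which the difference between the libraries also moved. Since this list is short and was chosen with earlier results known, these counts describe it and test nothing.

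**Figure D3:**
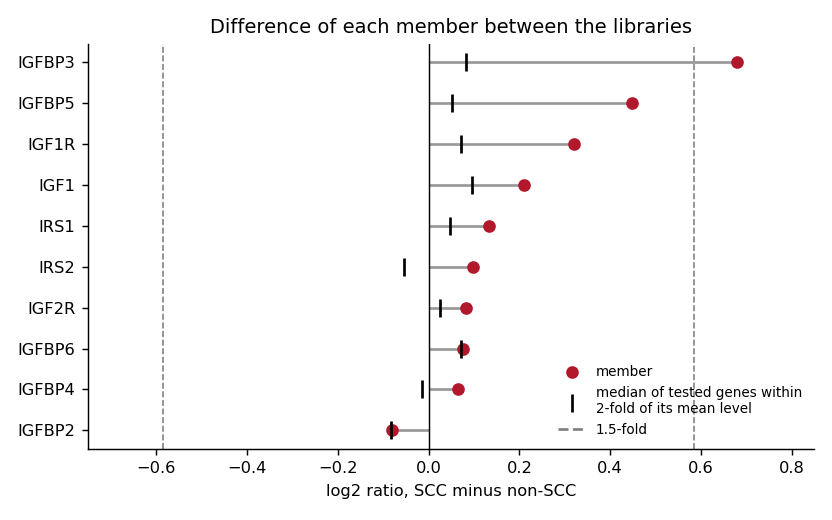
Log2 ratio of each member, SCC minus non-SCC, as a point, with the median of the tested genes within 2-fold of its mean level as a black tick and dashed lines at 1.5-fold. IGFBP3 lies past the line at 0.68, IGFBP5 at 0.45 and IGF1R at 0.32 lie inside it, and the points of IGFBP2 and IGFBP6 fall on their ticks.

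The ratios moved with level across all genes. The median log2 ratio was 0.13 for the 1443 tested genes with a mean level of 4 to 8 units, 0.08 for 8 to 16, 0.04 for 16 to 32, and -0.08 for 128 or more. Between 8 and 16, where IGFBP3, IGF1R, IGF1 and IGFBP6 lie, the 95th percentile of the ratio was 0.47, and 3.17% of genes were at least 1.5-fold higher. Of these 4, IGFBP3 was above that percentile. Between 16 and 32 the 95th percentile was 0.36, and IGFBP5 was above it. After the running median at each level was subtracted, a step added after seeing the data, IGFBP3 was at 0.585, level with the threshold, which is itself 0.585 on the log2 scale, IGFBP5 at 0.40 and IGF1R at 0.24.

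**Figure D4:**
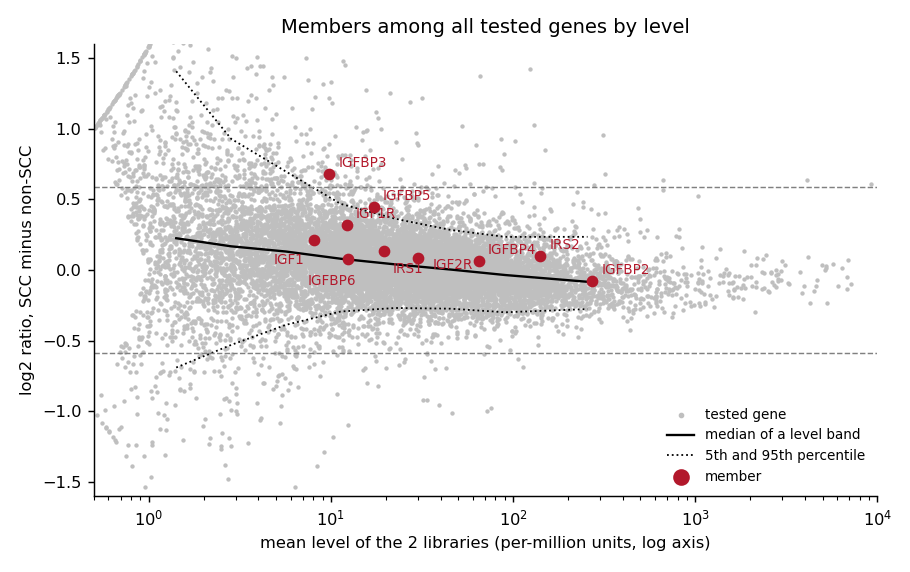
Log2 ratio, SCC minus non-SCC, of each tested gene against its mean level in per-million units on a log axis, with members in red, the median and the 5th and 95th percentiles of each level band as lines, and dashed lines at 1.5-fold. 60 genes lie outside the axes. IGFBP3 and IGFBP5 lie above the 95th percentile at their level, and the other 8 members between the percentile lines.

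The other genes of the pathway were taken as 113 genes in 10 lists by role, of which 97 were tested. Of these 97, 3 were at least 1.5-fold higher in the SCC library, none was at least 1.5-fold lower, and the median log2 ratio was 0.03, beside shares of 5.38% and 1.41% and a median of 0.03 for all tested genes. The 3 were SOCS3, GAB2 and TXNIP. SOCS3, a feedback inhibitor of cytokine and insulin signalling, was at 21.1 units in the SCC library, against 10.1 in the non-SCC library, a log2 ratio of 0.99. GAB2, a docking adaptor for SHP2 and PI3K, was at 2.39 in SCC, against 0.868 in non-SCC. TXNIP, a FOXO target that restrains glucose uptake, was at 123 in SCC, against 81.3 in non-SCC, a log2 ratio of 0.59 that barely passes the threshold and was under it with the median of all tested genes set to 0, where 2 list genes were past 1.5-fold. With no pseudocount 5 list genes passed 1.5-fold upward and 2 downward. The added ones were PIK3CD and NEDD4 on the higher side and NAGPA and GRB14 on the lower, all given below. The shares of all tested genes were taken with the pseudocount of 1 and do not apply to these counts.

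Outside the cell, no list had a gene past 1.5-fold. Of 8 other ligands, receptors and binding proteins 6 were listed at 0 in both libraries, and IGFBPL1, a secreted relative of the IGFBPs, was at 14.9 units in the SCC library, against 16.8 in the non-SCC library. Of 11 proteases that cut IGFBPs and their inhibitors, 7 were tested, with a median log2 ratio of 0.19. PAPPA, the protease that cuts IGFBP4 and frees its IGF, was at 32.7 units in the SCC library, against 28.5 in non-SCC. Its inhibitors were at larger differences, STC1 at 32.5 in SCC, against 22.2 in non-SCC, and STC2 at 22.2 in SCC, against 15.2 in non-SCC, with log2 ratios of 0.53 and 0.52. TIMP1, an inhibitor of metalloproteinases, was at 238 in SCC, against 196 in the non-SCC library.

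The IGF2 mRNA-binding proteins, RNA-binding proteins of embryonic and tumour cells that are unrelated to the IGFBPs, were nearly equal. IGF2BP1 was at 228 units in the SCC library, against 224 in the non-SCC library, IGF2BP3 at 110 in SCC against 105 in non-SCC, and IGF2BP2 at 41.2 in SCC against 39.3 in non-SCC. Their abundance stands beside an IGF2 level listed at 0.

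Of 14 adaptors beside IRS1 and IRS2, 13 were tested, with GAB2 the 1 past 1.5-fold and a median log2 ratio of 0.06. The most abundant, SHC1, which links receptors to RAS, was at 221 units in the SCC library, against 208 in non-SCC. NCK1 had a log2 ratio of 0.25 and SOS2, an exchange factor for RAS, 0.21. Of 13 inhibitors at the receptor 10 were tested, with a median of 0.11. GRB10, an adaptor that dampens IGF1R and insulin receptor signalling, was at 55.4 units in the SCC library, against 56.2 in non-SCC. Its relative GRB14 was at 0.609 in SCC, against 1.24 in non-SCC, and NEDD4, a ubiquitin ligase for IGF1R, at 3.94 in SCC, against 2.54 in non-SCC.

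Inside the cell, the 15 tested genes of PI3K and AKT that are reported had a median log2 ratio of 0.02. PIK3CD, a catalytic subunit of PI3K, had a log2 ratio of 0.58, just under the threshold, at 4.49 units in the SCC library, against 2.68 in non-SCC. PIK3R1, the main regulatory subunit, was at 16.0 in SCC, against 18.2 in non-SCC, AKT1 at 67.4 in SCC, against 76.1 in non-SCC, and AKT2 at 66.6 in SCC, against 65.7 in non-SCC.

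The mTOR arm had a median log2 ratio of -0.09, with 9 of its 12 genes below 0 and none past 1.5-fold, beside 5882 of the 13444 tested genes below 0. The median of all tested genes was itself -0.04 at mean levels of 64 to 128 units and -0.08 at 128 or more, the ranges that hold 4 of the 12. MTOR itself was at 51.1 units in the SCC library, against 53.9 in non-SCC. EIF4EBP1, the translation inhibitor that mTOR phosphorylates, was at 366 in SCC, against 438 in non-SCC, and RICTOR, the scaffold of mTOR complex 2, at 13.8 in SCC, against 10.9 in non-SCC. The RAS and ERK arm had 6 of 12 genes above 0 and a median of 0.00, with HRAS at 48.9 in SCC, against 62.0 in the non-SCC library, NF1 at 24.1 in SCC, against 20.6 in non-SCC, and MAP2K1 at 46.4 in SCC, against 40.5 in non-SCC.

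IGF2R works with the mannose 6-phosphate sorting system, in which the median log2 ratio was 0.01 and 5 of 10 genes lay above 0. M6PR, the smaller mannose 6-phosphate receptor, was at 121 units in the SCC library, against 138 in non-SCC. NAGPA, the enzyme that uncovers the mannose 6-phosphate tag, was at 6.78 in SCC, against 10.3 in non-SCC, a log2 ratio of -0.54, and PLAUR, a receptor that IGF2R binds, at 19.1 in SCC, against 23.8 in non-SCC. TGFB1, whose latent form IGF2R binds, was at 80.2 in SCC, against 66.4 in non-SCC.

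The FOXO factors, which AKT holds out of the nucleus, and their targets had the highest list median, 0.25 over 13 tested genes. Of the 13, 8 had a ratio above 0 and 5 below, beside 56.2% of all tested genes above 0. The median of all tested genes was itself 0.13 at mean levels of 4 to 8 units and 0.08 at 8 to 16, ranges that hold many of the 13. FOXO3 was at 15.9 units in the SCC library, against 12.7 in non-SCC, and FOXO1 at 5.33 in SCC, against 5.75 in non-SCC. Besides TXNIP, the targets SESN3, which restrains mTOR complex 1, and CCNG2, a cyclin of arrested cells, had log2 ratios of 0.47 and 0.42. IRS2 and INSR are themselves FOXO targets, at 0.10 and 0.29.

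**Figure D5:**
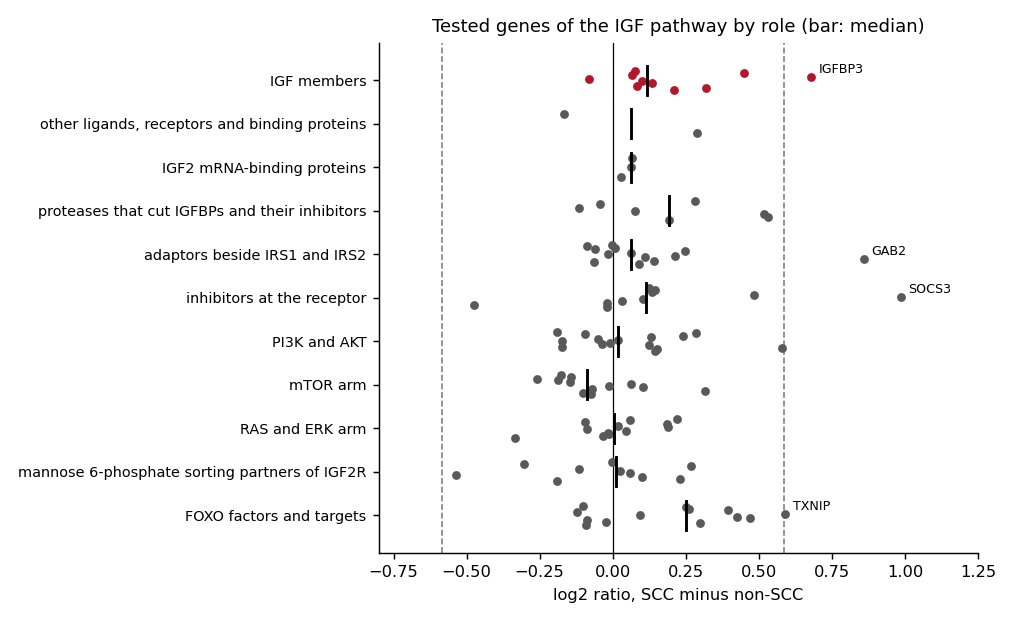
Log2 ratio, SCC minus non-SCC, of each tested gene of the members and of the 10 lists by role, with a bar at each median and dashed lines at 1.5-fold. The plotted genes past 1.5-fold are IGFBP3, GAB2, SOCS3 and TXNIP, all higher in the SCC library, and the mTOR arm is the list with its median furthest below 0.

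The nearest protein-coding genes on either side of the members were 18 genes that are not members, of which 7 were tested. None of the 7 was past 1.5-fold on log2(level + 1), beside 5.38% of all tested genes higher and 1.41% lower. However, PMCH, left of IGF1, was at 1.22 units in SCC, against 0.513 in non-SCC, more than 2-fold by levels, with a log2 ratio of 0.55. The others include ARRDC4, left of IGF1R, with a log2 ratio of 0.36, TOP2A, left of IGFBP4, at 234 in SCC, against 184 in non-SCC, and RHBDD1, which starts 339 bases from IRS1, at 9.30 in SCC, against 9.32 in non-SCC. Of the genes not tested, 10 were listed at 0 in both libraries, among them both neighbours of IGFBP3, and 1, beside IRS2, has no line in the deposited tables.

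Genes of other programmes and cell types differed between the libraries beside IGFBP3 and IGFBP5. All 8 tested Ewing sarcoma markers were present, with summed levels of 1302 units in the SCC and 1368 in the non-SCC library. Of these 8, 3 had a ratio above 0 and 5 below, with a median log2 ratio of -0.12 and none past 1.5-fold. The median of all tested genes was itself -0.04 at mean levels of 64 to 128 units and -0.08 at 128 or more. These ranges hold all of the Ewing sarcoma markers but FLI1. Of 11 fibroblast and pericyte markers, 8 were tested and all 8 had a ratio above 0, beside 56.2% of all tested genes. FAP and COL1A1 were at least 1.5-fold higher. The 11 summed to 291 in SCC and 261 in non-SCC, with PDGFRA listed at 0. FAP was at 3.67 units in SCC, against 1.74 in non-SCC, and COL1A1 at 3.19 in SCC, against 1.15 in non-SCC. Among tested genes with a mean level of 2 to 4 units, 14.2% were at least 1.5-fold higher. The more abundant COL1A2 and COL3A1 had log2 ratios of 0.05 and 0.07. All 4 endothelial markers were listed at 0, as were PTPRC and CD3E of 4 immune markers, whose sum was 4.78 in the SCC and 2.28 in the non-SCC library. CD68, the only immune marker tested, was at 4.36 units in SCC, against 2.28 in non-SCC, a log2 ratio of 0.71. The 5 epithelial markers summed to 20.2 in SCC and 21.2 in non-SCC, with CDH1 and KRT19 listed at 0, and the 5 osteoblast markers to 42.3 in SCC and 32.5 in non-SCC, with SP7 and IBSP listed at 0. Of the hypoxia genes, all 12 lay above 0, beside 56.2% of all tested genes, and 7 reached 1.5-fold upward, beside 5.38%. Of 12 immediate early genes, 10 reached it. Among the 7, CA9 and BHLHE40 had mean levels of 1.97 and 1.01 units. Between 1 and 2 units 23.3% of tested genes reached 1.5-fold upward. P4HA1, also among the 7, had a mean level of 70.8, and between 64 and 128 units the share was 0.804%. EGR3 had the lowest mean level of the immediate early genes, 7.31 units, and between 4 and 8 units the share was 7.83%. The part of the genes of these programmes and cell types in the differences of IGFBP3, IGFBP5 and IGF1R was not tested.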

How the data were processed

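RNA was profiled in 1 SCC (slow-cycling) and 1 non-SCC library of SK-ES-1, made with a poly(A)-selecting stranded kit per the labels' protocols. Per the submitters' processing notes the genome build was hg38. The aligner, counter and annotation are not given in the sources used. The deposited values, called normalized per the file headers, were taken as log2 of a per-million level plus 1: none is below 0, and back-transformed they summed to 983638 (SCC) and 984120 (non-SCC). Read depth is unknown, so no interval was computed.

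Lines of 1 Entrez gene ID (174 of 53826) were summed. Genes at or above 1 per-million unit in either library (13444) were tested, by fold alone, with a pseudocount of 1, which understates the difference of low genes, and a threshold of 1.5-fold. Coordinates came from RefSeq's GRCh38.p14 table and transcript lengths from GENCODE. The fold count was also run on simulated ratios. Their spread was taken from these same 2 libraries, so that run gives no error rate for the counts. Python 3.11.15 and pandas 2.3.3 were used. Members and lists were chosen with earlier results of these data known. Some genes of the PI3K and AKT list are not reported here, and its counts and median leave them out. Named are all members, genes of each list past 1.5-fold, the 3 largest differences of a list, genes the rule marks and neighbouring genes. INS, INSRR, SHC1, IRAIN, AIRN, CHP1P2, IGFBP-AS1, the IGF2 antisense gene, AKT1, AKT2 and single markers were named after their values were seen.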

Additional observations from a re-analysis of the deposited data

How the results depend on the processing

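No paired analysis was possible because each group has 1 library, and for the same reason no library could be left out. The 12 alternatives were 2 scalings, 2 filters, 2 other pseudocounts, removal of the trend with level, 2 other fold thresholds, and other sets of genes or lines. The filters, the fold thresholds and the other sets could not change the ratio of a member. With the scalings, the pseudocounts and the trend removed, IGFBP3 had log2 ratios of 0.59 to 0.75, IGFBP5 0.40 to 0.47 and IGF1R 0.24 to 0.35. IGFBP2 turned to 0.0072 once the trend with level was removed, an alternative added after seeing the data, so that all 10 members had a ratio above 0 there. On log2(level + 1), 0 members were past 2-fold, and 2, IGFBP3 and IGFBP5, were past the laxer threshold tried, a ratio of 5 to 4, which IGF1R passes by levels alone. On the same scale 0 list genes were past 2-fold, although SOCS3 and GAB2 pass it by levels, and at the laxer threshold 10 were higher and 3 lower. Against 3 as reported above, 5 list genes were at least 1.5-fold higher with a pseudocount of 0.1, 5 with none, 2 with the median of tested genes set to 0 and 2 with 5 times the minimum level. Against none as reported above, 2 list genes were at least 1.5-fold lower with a pseudocount of 0.1, 2 with none and 2 with the trend removed (the last 2 alternatives added after seeing the data). Shares of all tested genes under these alternatives are not given, so the counts of members and list genes there have no background to be read against. Depth is unknown, and genes near 1 per-million unit are the least certain.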
